A study of Drosophila melanogaster with 3 samples.

Results

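SREBP binding at promoters that serve several genes was described from 1212 peaks of the deposited optimal peak list, out of 7993 peaks in that list. A peak was taken when its summit, the position of highest signal, lay within 500 bp of annotated transcription start sites of at least 2 different protein-coding genes. The start sites came from Ensembl's annotation of the fly genome on arms X, 2L, 2R, 3L, 3R and 4. A further 2106 optimal peaks lay within 500 bp of a start site of exactly 1 gene, and these single-gene promoter peaks serve as the yardstick. The choice of the 1212 peaks rests on their position alone. They cover 1128 distinct sets of genes, of which 84 sets carry more than 1 peak (168 peaks), and 2308 genes in all.

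The data are chromatin immunoprecipitation with sequencing (ChIP-seq) of 3 biological replicates, which form 1 group and carry no contrast between conditions. The material was whole Drosophila melanogaster larvae at the third, wandering instar, males and females pooled, of age not known, from 1 transgenic line that stably expresses SREBP fused to green fluorescent protein (SREBP-eGFP; a note places the tag at the N terminus). The precipitation used an antibody against GFP per the sample descriptions, whereas the antibody field names HLH106, another name of SREBP, and fragments measured 200 to 800 bp. The labels do not give the promoter that drives the fusion, or whether untagged SREBP was also present, and whole larvae mix all tissues. No input or untagged sample was analysed here. The optimal list holds 7993 peaks and each replicate list 30000, of which the 7993 strongest were used. The lists hold peaks and not reads, so the read depth behind each peak is unknown. Strength is given as a rank by the authors' signal value within a list, with rank 1 the strongest. Intervals are 95% Wilson intervals and cover counting error only, since peaks and genes are not replicates.

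SREBP is a membrane-bound transcription factor of the basic helix-loop-helix leucine zipper family. Its N-terminal part is released by proteolysis, enters the nucleus and is known for its part in the synthesis of fatty acids and phospholipids in flies. In a divergent pair, neighbouring genes on opposite strands are transcribed away from each other out of 1 common stretch of DNA. In a convergent pair the transcripts run towards or across each other, and in a same-strand pair they run the same way. Divergent pairs are frequent in the compact fly genome, their common stretch is often free of nucleosomes, and a ChIP peak in it cannot be assigned to either gene from its position.

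The sequences under the strongest of these peaks show the A/T runs that many of them hold. All are from the dm6 assembly, plus strand, and are limited to stretches outside annotated exons. They run between the start sites of the pair where these lie up to 300 bp apart with the summit between them, and otherwise reach up to 75 bp to each side of the summit. In all but the last, which come from the strongest divergent, same-strand and convergent peaks with such a stretch, capitals mark runs of at least 10 bases made of A and T only. In RpL28/eIF1, the strongest peak outside exons with a match to the DNA replication-related element (DRE) TATCGATA, capitals mark that match.
Art3/mRpS10, chr3R:15229409-15229664: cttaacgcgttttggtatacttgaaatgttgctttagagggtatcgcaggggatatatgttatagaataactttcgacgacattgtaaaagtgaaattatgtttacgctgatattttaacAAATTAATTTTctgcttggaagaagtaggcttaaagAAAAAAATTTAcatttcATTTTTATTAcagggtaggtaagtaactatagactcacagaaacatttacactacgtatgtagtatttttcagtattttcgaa
CG13390/CG17294, chr2L:8376798-8377034: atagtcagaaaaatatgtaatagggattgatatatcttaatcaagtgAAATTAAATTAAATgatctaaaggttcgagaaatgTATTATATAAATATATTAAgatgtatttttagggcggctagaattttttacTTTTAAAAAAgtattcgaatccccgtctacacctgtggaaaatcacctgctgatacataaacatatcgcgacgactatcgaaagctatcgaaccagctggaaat
CG18428/eIF4EHP, chr3R:24109117-24109267: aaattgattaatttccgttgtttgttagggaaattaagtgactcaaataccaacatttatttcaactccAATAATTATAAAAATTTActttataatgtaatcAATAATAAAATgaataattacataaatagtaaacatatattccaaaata
CG5611/Mtl, chr3R:27636091-27636241: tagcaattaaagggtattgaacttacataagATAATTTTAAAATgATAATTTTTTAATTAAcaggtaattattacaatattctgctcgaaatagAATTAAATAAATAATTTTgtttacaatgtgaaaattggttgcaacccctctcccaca
CG11309/CG7632, chr3L:21304500-21304608: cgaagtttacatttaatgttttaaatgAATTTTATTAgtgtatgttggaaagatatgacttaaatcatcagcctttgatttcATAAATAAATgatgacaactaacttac
CenG1A/mRpS23, chr2L:13835379-13835529: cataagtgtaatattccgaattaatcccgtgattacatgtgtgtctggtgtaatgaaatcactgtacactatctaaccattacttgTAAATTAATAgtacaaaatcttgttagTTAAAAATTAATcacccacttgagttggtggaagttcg
Irk1/CG46310, chr3R:23173414-23173564: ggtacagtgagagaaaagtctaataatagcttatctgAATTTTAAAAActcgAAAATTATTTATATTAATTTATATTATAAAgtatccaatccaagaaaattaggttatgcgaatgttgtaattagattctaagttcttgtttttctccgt
CG42353/CG42354, chrX:16105130-16105280: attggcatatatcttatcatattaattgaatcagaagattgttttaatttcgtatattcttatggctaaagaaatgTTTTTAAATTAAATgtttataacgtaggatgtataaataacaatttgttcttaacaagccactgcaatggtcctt
CG31808/Cyt-c-d, chr2L:16716251-16716401: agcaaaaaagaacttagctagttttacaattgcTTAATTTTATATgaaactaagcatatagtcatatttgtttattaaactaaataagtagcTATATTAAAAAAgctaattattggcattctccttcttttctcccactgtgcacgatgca
RpL28/eIF1, chr3L:3223012-3223162: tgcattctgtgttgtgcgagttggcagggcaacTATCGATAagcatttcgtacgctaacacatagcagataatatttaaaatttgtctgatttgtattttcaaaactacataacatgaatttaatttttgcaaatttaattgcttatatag
The stretch at CG18428/eIF4EHP is 19.2% G+C with a longest A/T run of 18 bp, and that at Irk1/CG46310 holds a run of 30 bp. None of the stretches printed is above 32.5% G+C, but they come from strong peaks and do not stand for all shared peaks. The 101 bp around shared summits had a mean of 25.8% G+C at ranks 1 to 1000 and 36.7% at 4001 to 7993. The stretches at RpS25/CG4820 and LeuRS-m/Dhc64C, peaks with a motif match that are not printed, had 39.3% and 47.3%.

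Most of the shared promoters under SREBP peaks were divergent. Of the 1212 peaks, 1105 (91.2%, 89.4 to 92.6) lay at divergent pairs, 89 (7.34%) at same-strand pairs and 18 (1.49%) at convergent pairs, with the orientation taken from the 2 genes whose start sites are nearest to the summit. Among the 7993 strongest peaks of each replicate the divergent share was 91.6%, 90.0% and 91.7% for replicates 1, 2 and 3, which averages 91.1% ± 0.925 (SD, n = 3). The annotation itself holds 2434 pairs of genes with start sites at most 500 bp apart, of which 1954 (80.3%) are divergent, 404 (16.6%) same-strand and 76 (3.12%) convergent. Of the 404 same-strand pairs 360 have 1 shared start site. The start sites at a shared peak can also lie farther apart. Of the 3520 pairs at most 1000 bp apart 74.3% are divergent, 22.7% same-strand and 2.95% convergent. These shares count pairs and not peaks. The shared peaks made up 36.5% (34.9 to 38.2) of the 3318 optimal promoter peaks. In replicates 1, 2 and 3 they numbered 1216, 1195 and 1249, which were 37.0%, 34.8% and 37.2% of the promoter peaks, a mean of 36.3% ± 1.30 (SD, n = 3). A promoter limit of 250 bp left 782 shared peaks, and the 3996 strongest optimal peaks held 779. The limit of 500 bp cut through few cases. In 8 peaks the second gene lay at 491 to 500 bp (median rank 5111.5), and 6 further promoter peaks had it at 501 to 510 bp (median rank 6252.5).

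The peaks were spread over the large arms. Arm 3R carried 321 of them, 3L 248, 2R 227, 2L 226 and X 189. Chromosome 4 carried 1. Of the annotated divergent pairs, 54.5% had an optimal peak on 3R, 52.9% on X, 52.6% on 3L, 47.2% on 2L and 46.2% on 2R, and none of the 7 on chromosome 4.

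At divergent pairs most summits lay between the start sites. Of the 1105 summits, 933 (84.4%, 82.2 to 86.5) stood between the start sites, whereas that stretch makes up on average 48.1% of the positions that the 500 bp rule allows. Replicates 1, 2 and 3 had 85.0%, 79.4% and 84.0% there, which averages 82.8% ± 3.01 (SD, n = 3), against 49.7%, 44.6% and 48.3% of the allowed positions. The median pair had 295 bp between its start sites, and the median summit lay 100 bp from the nearer start site, 196 bp from the farther and 54 bp from the midpoint. Single-gene promoter peaks had a median position of -128 bp from their start site, and 81.3% of them were upstream of it.

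**Figure D1:**
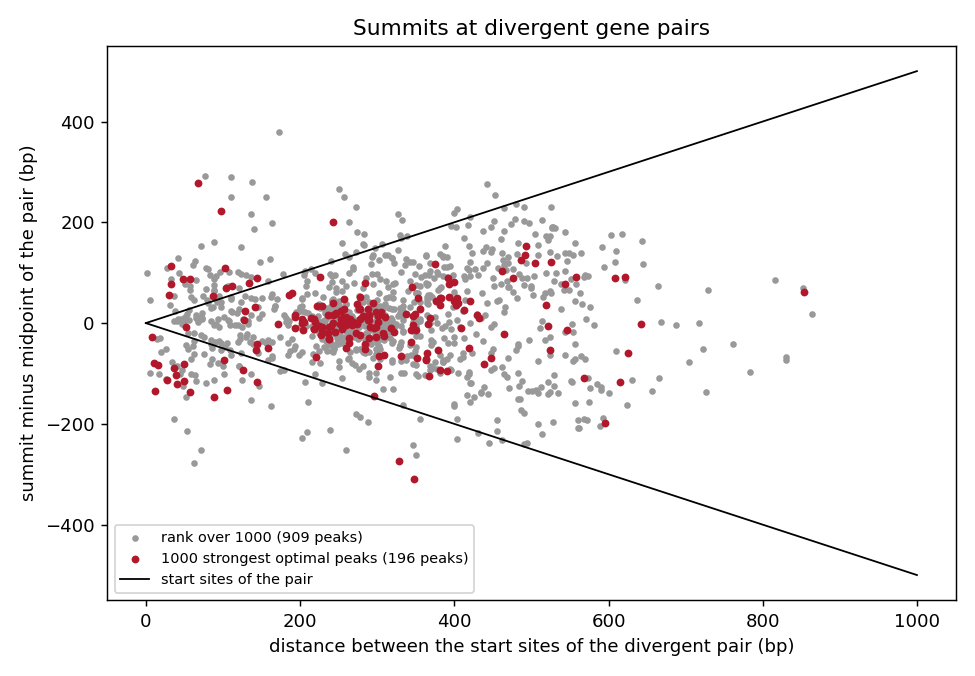
Position of the summit relative to the midpoint between the start sites (y axis, bp, along the plus strand) against the distance between those start sites (x axis, bp) for the 1105 divergent peaks. Black lines mark the start sites, and red points are the 196 peaks among the 1000 strongest, many of which gather near the midpoint at distances of 201 to 300 bp.

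The share of summits between the start sites rose with the distance between them, which the 500 bp rule favours. The wider the pair, the larger is the part of the allowed positions that lies between its start sites. That part was not computed by distance. In pairs up to 100 bp apart 40 of 128 summits (31.3%) lay between the start sites, at 101 to 200 bp 66.4%, at 201 to 300 bp 92.6%, at 301 to 400 bp 95.1% and at 401 to 500 bp 95.2%. Beyond 500 bp the rule allows no other place, and the share was 100%. At 201 to 300 bp the median summit was 28 bp from the midpoint, and at 401 to 500 bp it was 104 bp away. The median distance to the nearer start site was 99 bp at 201 to 300 bp, 120 bp at 301 to 400 bp and 120 bp at 401 to 500 bp. Peaks at pairs 201 to 300 bp apart were the strongest of these classes, with a median rank of 2147.5, and median ranks of 1905, 2589 and 2239 in replicates 1, 2 and 3. Pairs up to 100 bp apart had a median rank of 3880.5, and of 3335, 4979 and 3766 in the replicates. In each replicate the peaks at 201 to 300 bp thus ranked ahead of those at up to 100 bp.

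The strongest shared peak lay between Art3, an arginine methyltransferase gene (FBgn0038306), and mRpS10, which encodes a protein of the small mitochondrial ribosomal subunit (FBgn0038307). Its interval is 15229302 to 15229763 on 3R, and the summit lies at -127 bp relative to Art3 and -130 bp relative to mRpS10. Its rank was 5 in the optimal list and 3, 14 and 5 in replicates 1, 2 and 3, and the summits of the replicates spread by 2.08 bp (SD, n = 3). The first stretch printed above runs between these start sites.

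The next divergent peaks were nearly as constant over the replicates. The peak of CG13390/CG17294 (2L from 8376675 to 8377106) ranked 13, 12 and 13 in replicates 1, 2 and 3, with its summit at the same base in each. The peak of Pal1, which encodes an enzyme of peptide amidation, and Pdrg1 (2R from 9959653 to 9960148) ranked 12, 19 and 15. That of CG18428 and eIF4EHP, whose product binds the mRNA cap and represses translation (3R from 24108910 to 24109432), ranked 16, 20 and 18. All 3 had their summits between the start sites, at 87 to 232 bp from each.

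Mtl, a gene of the Rac family of small GTPases, shared its peak with CG5611 (3R from 27635934 to 27636595) and showed more spread, with ranks of 17, 42 and 16. At CG11309/CG7632 (3L from 21304341 to 21304800) the start sites are 39 bp apart. The summit lay outside them, in an intron and 83 bp downstream of the start site of CG11309. Its ranks were 26, 16 and 34. At Chro, which encodes a chromatin and spindle protein, and Ssl1, which encodes a subunit of the transcription and repair factor TFIIH (3L from 22878673 to 22879127), the summit also lay outside the pair, 80 bp inside Chro in its 5' UTR, with ranks of 25, 26 and 22. CenG1A, an Arf GTPase-activating protein gene, and mRpS23, another mitochondrial ribosomal protein gene (2L from 13835233 to 13835672), had their summit at -110 and -382 bp, with ranks of 29, 25 and 27. These 8 peaks ranked between 3 and 42 in the 3 replicates.

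Same-strand peaks mostly marked overlapping gene models. In 74 of the 89 the nearest 2 genes have 1 identical annotated start site, so that the peak cannot be told apart for them, and 70 summits lay upstream of both. The strongest had 10 genes within reach, the pre-mod(mdg4) models on 3R from 21365200 to 21365677, which contribute exons by trans-splicing to the mod(mdg4) chromatin protein. It ranked 70, 256 and 125 in replicates 1, 2 and 3, so replicate 2 had it lowest. Sesn, which encodes a stress protein that restrains TOR signalling, and CG46429 (2R from 23713420 to 23713930) ranked 241, 172 and 217. Irk1, a potassium channel gene, and CG46310 (3R from 23173275 to 23173747) ranked 260, 247 and 209, with the summit 384 bp upstream in an intron. CG42353/CG42354 (X from 16104976 to 16105466) ranked 291, 292 and 229.

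Convergent peaks were few and lay inside genes, which their definition all but requires. Each position near such a pair is downstream of at least 1 of its start sites. None of the 18 summits stood between genes, 11 lay in a 5' UTR, 5 in an intron and 2 in coding sequence, and 5 were between the start sites. The strongest was at Adck1, a mitochondrial kinase-like gene, and CG4741 (2R from 24611378 to 24611772), with ranks of 417, 293 and 287. CG31808 and Cyt-c-d, 1 of the cytochrome c genes, had a peak on 2L from 16716144 to 16716541 with ranks of 471, 304 and 340. The summit lay 131 bp upstream of CG31808 and 365 bp inside Cyt-c-d. CG3770/CG15861 (2R from 24944739 to 24945189) ranked 534, 431 and 481, and CG4658/CG5846 (2L from 9956967 to 9957333) ranked 592, 579 and 601. The peak at mAcon1, the mitochondrial aconitase gene, with CG43345 and CG43346 (2L from 21168289 to 21168667) ranked 616, 1184 and 868.

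Few peaks had more than 2 genes within reach. Of the 1212, 1152 had 2 genes, 53 had 3, 4 had 4, 2 had 5 and 1 had 10. The 2 with 5 genes were the divergent peak at NC2alpha, which encodes a repressor of basal transcription, and PIG-M, a gene of glycolipid anchor synthesis, with CG42379, CG42380 and CG42381 (ranks of 2591, 1880 and 1953), and the same-strand peak at CG43325, CG43326, CG13510, CG13511 and CG42565 (ranks of 3704, 2543 and 3253). The same-strand peak at Ppcdc, a gene of coenzyme A synthesis, and Tim10, a mitochondrial import gene, with CG42496 and CG42497 ranked 2122, 2497 and 3027. Over all shared peaks 828 summits (68.3%) lay between genes, 219 (18.1%) in a 5' UTR and 128 (10.6%) in an intron. Of the single-gene promoter peaks 47.7% lay between genes, 15.8% in a 5' UTR and 30.4% in an intron.

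Genes with a close neighbour were bound more often than genes without one in each replicate. A gene was called bound when an optimal summit lay within 500 bp of any of its start sites, which held for 28.7% of the 13945 protein-coding genes. A summit counts for each gene within reach. Genes with a neighbour can thus also be called bound through a summit at the promoter of the neighbour, which raises their share by construction. How much of the higher share comes from this was not tested. Of the 4309 genes with a start site of another gene within 500 bp, 2199 (51.03%, 49.5 to 52.5) were bound, and of the 9636 genes without one 1810 (18.8%, 18.0 to 19.6). With the strongest peaks of replicates 1, 2 and 3 the shares were 50.6%, 51.1% and 52.5% of the genes with a neighbour, against 19.1%, 18.4% and 19.1% of those without. The difference was 31.5, 32.6 and 33.4 percentage points, a mean of 32.5 ± 0.977 (SD, n = 3), in the same direction in 3 of 3 replicates (exact sign-flip permutation test, two-sided, p = 0.25). That is the smallest p that this test allows with 3 replicates, so none of its results can pass 0.05. Genes with a neighbour have on average 1.49 start sites and those without 1.37. Among genes with 1 start site the shares were 46.0% and 13.5%. Of the 4009 bound genes, 2308 (57.6%) were bound through a shared peak, and 2198 of these had no single-gene promoter peak. The start sites at a shared peak can lie more than 500 bp apart, so a gene at such a peak need not count as having a neighbour.

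Divergent pairs were bound more often than same-strand pairs in each replicate. An optimal summit within 500 bp of both start sites was found at 991 of the 1954 divergent pairs (50.7%, 48.5 to 52.9), at 140 of the 404 same-strand pairs (34.7%, 30.2 to 39.4) and at 29 of the 76 convergent pairs (38.2%, 28.1 to 49.4). The divergent share was 50.6%, 50.6% and 52.8% in the 3 replicates and the same-strand share 34.2%, 34.9% and 34.7%. The convergent share was 31.6%, 42.1% and 35.5%. The ranges of the divergent and same-strand shares did not overlap between replicates. By distance, divergent pairs were bound at 39.6% (1 to 100 bp), 39.8% (101 to 200 bp), 62.4% (201 to 300 bp), 60.2% (301 to 400 bp) and 45.5% (401 to 500 bp). At 201 to 300 bp the replicates gave 61.8%, 60.1% and 63.1%, above the 37.5%, 47.7% and 42.2% at 1 to 100 bp. In the whole pooled list of 30000 peaks 67.1% of the divergent pairs had a summit.

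**Figure D2:**
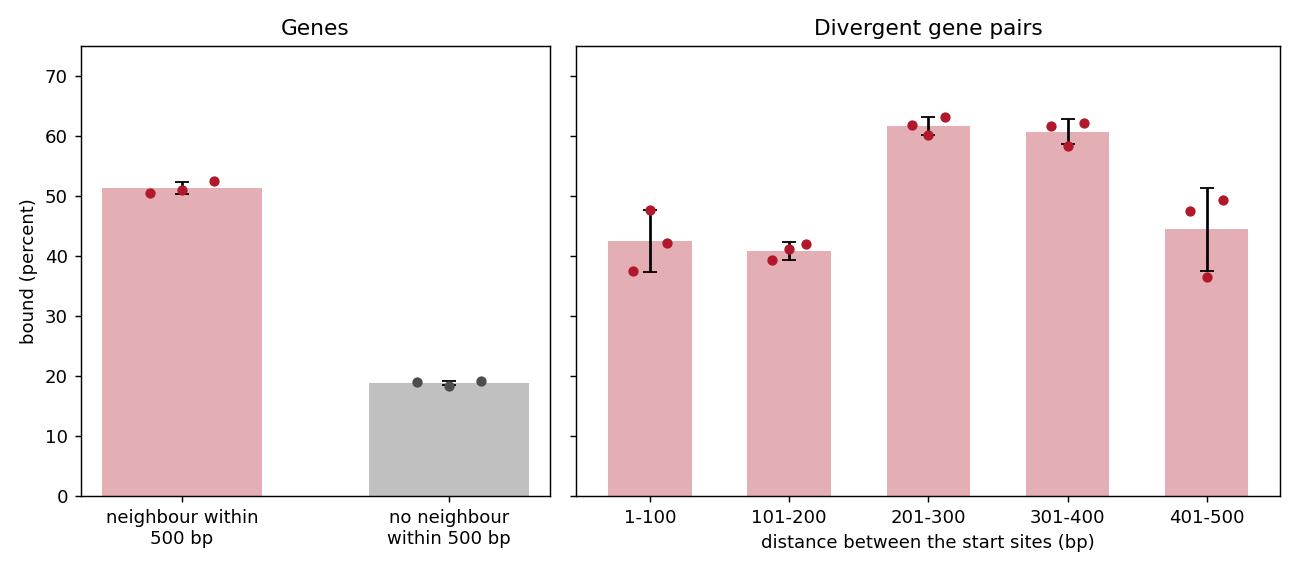
Percent of genes with a summit within 500 bp (left: genes with a neighbouring start site, then genes without) and percent of divergent pairs with such a summit by the distance between their start sites (right), in the 7993 strongest peaks of each replicate. Points are replicates, bars their mean and error bars the SD (n = 3); the mean is 51.4% with and 18.9% without a neighbour, and 61.7% at 201 to 300 bp.

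Shared peaks ranked ahead of single-gene promoter peaks among the 7993 strongest peaks of each replicate, but not among the 3996 strongest of replicate 2. The median rank was 2980.5 for shared peaks, 4148.5 for single-gene promoter peaks and 3997 for all optimal peaks. In replicates 1, 2 and 3 it was 2698.5, 3378 and 3026 for shared peaks, against 4035, 4358 and 4098.5 for single-gene peaks. The difference was -1336.5, -980 and -1072.5 ranks, a mean of -1130 ± 185 (SD, n = 3; exact sign-flip permutation test, two-sided, p = 0.25), and no replicate went against it. Among the 3996 strongest peaks the difference was -328, 1.5 and -224 ranks, a mean of -183.5 ± 168 (SD, n = 3; exact p = 0.5), so that the direction was lost in replicate 2. With a promoter limit of 1000 bp it was -740.5 ± 272. Divergent peaks had median ranks of 2651, 3338 and 2966 in the replicates and same-strand peaks 3232, 3688 and 3393.5. Convergent peaks, 15 to 25 in each replicate, had 2968, 4392 and 3605.

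**Figure D3:**
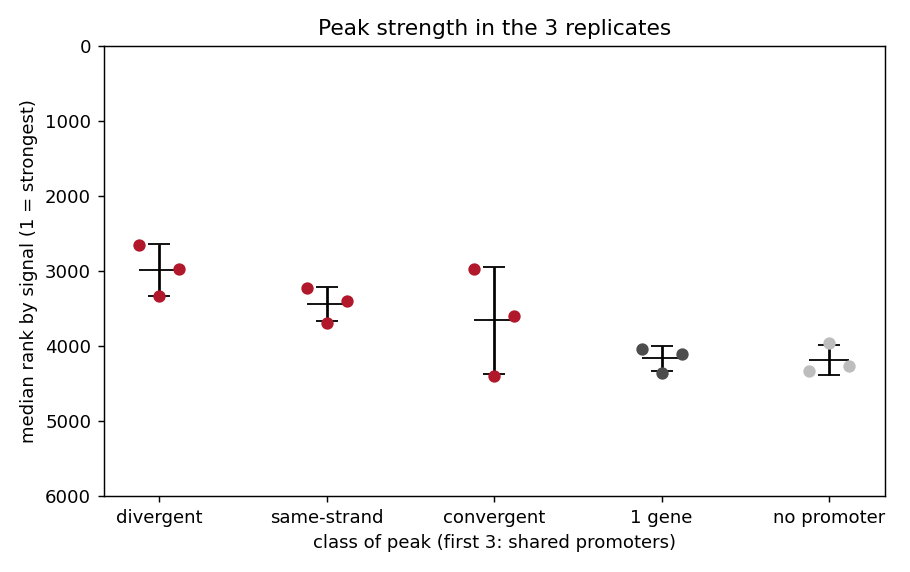
Median rank by signal (y axis, rank 1 at the top is the strongest) of the classes of peak among the 7993 strongest of each replicate. Points are replicates, the horizontal mark is their mean and the error bar the SD (n = 3); divergent peaks lie at 2651 to 3338 and single-gene promoter peaks at 4035 to 4358.

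By rule the 1000 strongest peaks are 12.5% of the optimal list, and they held 219 of the 1212 shared peaks (18.1%) and 290 of the 2106 single-gene peaks (13.8%). The share was 21.3%, 13.7% and 18.6% of the shared peaks in replicates 1, 2 and 3, against 13.7%, 13.01% and 13.5% of the single-gene peaks. In replicate 2 both were thus near the share of all peaks. That replicate gave the lowest of the 3 ranks to 714 of the 1085 shared peaks matched in the 3 full lists (65.8%) and to 743 of the 1880 single-gene peaks (39.5%). The portion of promoter peaks that are shared declined along the pooled list. It was 45.8% at ranks 1 to 2000, 33.1% at 4001 to 6000, 18.0% at 10001 to 12000 and 8.85% at 28001 to 30000. The replicate lists gave 48.01%, 40.5% and 46.6% at ranks 1 to 2000, and 8.46%, 14.2% and 10.5% at 28001 to 30000.

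Shared peaks were found again in the replicates about as often as single-gene peaks of like rank. Of the 1212, 923 (76.2%, 73.7 to 78.5) had a summit within 150 bp among the 7993 strongest peaks of all 3 replicates, as had 67.4% of the single-gene peaks, and over the whole optimal list the share was 71.8%. Each replicate held 90.7%, 85.8% and 93.5% of the shared peaks, against 85.8%, 83.4% and 87.0% of the single-gene peaks. At ranks 1 to 1000 the share found in all 3 was 100% of the shared and 99.3% of the single-gene peaks, at 1001 to 4000 93.0% and 95.2%, and at 4001 to 7993 42.3% and 40.3%. The optimal list was itself made from agreement between replicates, so these shares describe the list.

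The summit often did not point to the same gene of a pair in each replicate. Among 992 divergent peaks with a summit within 150 bp in all 3 full lists, the gene nearest to the summit was the same in all 3 replicates for 762 (76.8%, 74.1 to 79.3). Over all orientations it was 849 of 1085 (78.2%), which includes pairs that share a start site and are tied. Replicates 1 and 2 named the same gene at 83.3% of the divergent peaks, 1 and 3 at 86.6% and 2 and 3 at 83.8%. Where the distances to the 2 genes differed by 50 bp or less, 159 of 307 peaks (51.8%, 46.2 to 57.3) kept the nearest gene, and where they differed by more, 603 of 685 (88.0%, 85.4 to 90.3). The position of a summit varied over the replicates by a median SD of 18.5 bp at shared peaks and 20.5 bp at single-gene peaks. Of the optimal divergent summits, 30.6% had their 2 genes within 50 bp of equal distance.

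The shared peaks lay in A/T-rich sequence with G+C-rich flanks, as did the optimal peaks away from promoters. The 101 bp around the summit had a mean of 31.6% G+C at shared peaks, 35.6% at single-gene promoter peaks and 32.8% at all optimal peaks. At 300 bp from the summit the order was turned, with 46.1% at shared and 42.7% at single-gene peaks. The 4675 optimal peaks within 500 bp of no start site had 31.9% at the summit and 45.2% at 300 bp, near the values of shared peaks, and in replicates 1, 2 and 3 such peaks had 32.5%, 32.6% and 32.2% at the summit. In replicates 1, 2 and 3 the values at the summit were 31.5%, 32.4% and 32.1% for shared peaks, against 34.8%, 36.9% and 35.4% for single-gene peaks. The difference was -3.29, -4.53 and -3.30 percentage points, a mean of -3.71 ± 0.711 (SD, n = 3; exact sign-flip permutation test, two-sided, p = 0.25). It was seen at each strength, with 25.8% and 28.8% at ranks 1 to 1000, 30.1% and 33.1% at 1001 to 4000, and 36.7% and 39.0% at 4001 to 7993 for shared and single-gene peaks. With a promoter limit of 1000 bp the mean difference was -1.92 points. An A/T run of 15 bp or more stood within 50 bp of the summit at 26.9% of shared peaks, 17.5% of single-gene peaks, 18.7% of peaks away from promoters and 19.7% of all optimal peaks.

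**Figure D4:**
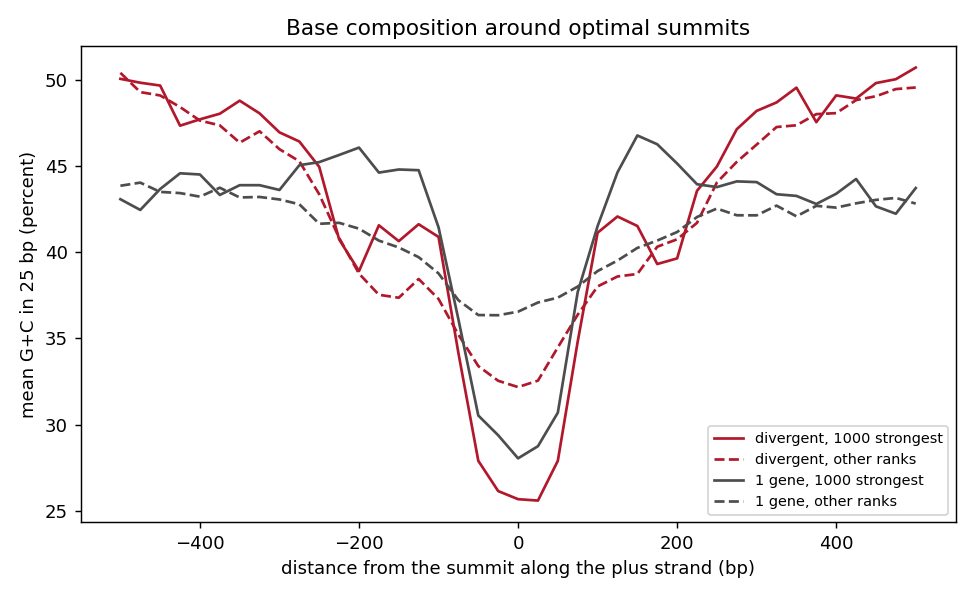
Mean G+C content in windows of 25 bp (y axis, percent) against the distance from the summit (x axis, bp, along the plus strand) for divergent and single-gene optimal peaks, each split at rank 1000. At the summit the means are 25.7% and 32.2% for the strong and the other divergent peaks, against 28.0% and 36.5% for single-gene peaks, and at 500 bp the divergent flanks are near 50%.

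Base composition also differed between divergent pairs with and without an optimal peak at a place that does not depend on a summit. The 101 bp at the midpoint between the start sites had a mean of 31.3% G+C in the 991 pairs with an optimal peak and 35.7% in the 963 without one. The longest A/T run averaged 12.3 bp in pairs with a peak and 10.5 bp in pairs without. These means were not split by the distance between the start sites. Of the pairs 1 to 100 bp apart 39.6% had an optimal peak, and of those 201 to 300 bp apart 62.4%. The pairs with and without a peak thus also differ in that distance. A window of the same length centred 100 bp upstream of the start site of each of the 13945 genes had 37.6%. By distance between the start sites, the 101 bp around divergent summits had 38.2% G+C in pairs up to 100 bp apart, 35.3% at 101 to 200 bp, 29.0% at 201 to 300 bp, 29.3% at 301 to 400 bp and 32.9% at 401 to 500 bp.

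The palindromic E-box CACGTG, which SREBP and other factors of its family bind, was rare at the shared peaks. Searched on both strands in the 101 bp around the summit, it was found at 8 of the 1212 shared peaks (0.660%) and at 1.14% of single-gene peaks. Over all optimal peaks it was found at 0.576%, and over windows of the same length upstream of all genes at 0.990%. In the 101 bp at the midpoint of divergent pairs, which need not hold the summit, it was found at 15 of the 991 pairs with an optimal peak (1.51%, 0.919 to 2.48) and at 6 of the 963 pairs without one (0.623%, 0.286 to 1.35). These midpoint shares were not split by the distance between the start sites. The share among the shared peaks of the 3 replicates had a mean of 0.929% ± 0.0950 (SD, n = 3). The strongest of the 8 was at RpL7, a cytosolic ribosomal protein gene, and Ripalpha, with ranks of 638, 1057 and 698. Others lay at CG8545/dgt5 (ranks of 1440, 2526 and 1999) and at LeuRS-m/Dhc64C (5091, 6462 and 3890). The longer form TCACGTGA matched none of the shared peaks, and TCACNCCA, the core of the sterol regulatory element known from mammals, matched 6 (0.495%), against 0.522% of single-gene peaks and 0.703% of all promoters. The general form CANNTG, which includes the palindrome, matched 29.0% of shared peaks, 32.5% of single-gene peaks and 36.7% of promoters.

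Of the motifs known from promoters, TATAAA was more frequent at shared peaks than at single-gene peaks and GAGAGAG less frequent. TATAAA, the sequence of the TATA box, matched 27.2% of shared peaks, 19.8% of single-gene peaks and 18.2% of promoters. It matched 23.6% of all optimal peaks, most of which lie within 500 bp of no start site. These shares were not adjusted for base composition, which differs between the same groups. The windows are centred on summits and not on start sites, so a match need not be a TATA box in use. GAGAGAG, bound by the GAGA factor, matched 2 shared peaks (0.165%), against 1.90% of single-gene peaks and 3.38% of promoters. TATCGATA, the DRE, bound by the factor DREF at many housekeeping promoters, matched 44 shared peaks (3.63%) and 2.94% of single-gene peaks. Over all optimal peaks it matched 1.44% and over all promoters 2.62%. None of the 44 was among the 1000 strongest peaks, the best ranking 1105 at RpL28 and eIF1, genes of a ribosomal protein and of an initiation factor, with ranks of 1197, 1314 and 817 in the replicates. The next was at RpS25/CG4820 (1394, 1418 and 1188). At the midpoints of divergent pairs the DRE matched 4.84% of pairs with an optimal peak and 7.996% of those without. GGTCACACT, bound by the factor M1BP, matched 1.41% and 4.15% there, and these midpoint shares were not split by distance either. The shares at the summits depend on the window and were 1.73% for the DRE and 0.248% for CACGTG within 25 bp of the shared summits, and 9.57% and 1.82% within 100 bp.

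Lists of genes by function differed in how many of their bound genes stood at shared peaks. Of the 12 pathway lists with at least 10 genes of each kind, 11 had a higher share bound among genes with a neighbour than among genes without. This contrast is favoured by the rule that counts a summit for each gene within reach. The 25 lists were chosen with earlier results known and are described by their counts beside the 57.6% of all bound genes that were at shared peaks. Of the 76 mitochondrial ribosomal protein genes 43 were bound, 39 of them (90.7%) at shared peaks. After mRpS10 and mRpS23, the strongest were mRpL23 with CG9004 (ranks of 42, 55 and 30) and mRpL24 with betaggt-I (67, 140 and 74). Of the 35 aminoacyl-tRNA synthetase genes, whose products charge transfer RNAs, 16 were bound and 15 of them were at shared peaks, led by SerRS with CG17260 (490, 655 and 395) and GluProRS with AP-1sigma (496, 1091 and 735). RNA polymerase subunits had 9 of 10 bound genes at shared peaks, led by Polr2B with 140up (226, 685 and 250), and genes of DNA replication 13 of 15. Genes with a neighbour make up 30.9% of all genes. They are 72.4% of the mitochondrial ribosomal protein, 65.7% of the synthetase, 63.3% of the RNA polymerase and 47.2% of the DNA replication genes. Over the pathway lists they range from 12.5% (ecdysone response) to 75% (mevalonate pathway). The shares at shared peaks were not adjusted for this.

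Mediator and TFIID subunits, which link activators to RNA polymerase II, had 15 of 20 bound genes at shared peaks, led by Taf5 with Pex6 (164, 357 and 185) and MED27 with elm (223, 782 and 335). Oxidative phosphorylation had 26 of 36, with ND-MWFE and ND-ASHI of complex I sharing peaks with TppII (216, 934 and 416) and Fum1 (511, 432 and 564). Autophagy genes had 10 of 13, led by Atg2 with CG12093 (227, 438 and 282) and Atg17 with Xe7 (246, 708 and 354). Rab GTPases, which direct membrane traffic, had 9 of 13, the proteasome 12 of 16 and the vacuolar ATPase 8 of 14 (57.1%), near the share of all bound genes. In the last of these Vha68-1 shares its peak with mTor, the kinase of TOR signalling (1002, 2294 and 1455). Mcm2, a subunit of the replicative helicase, and RPA1, a single-strand DNA binding protein, were the only pair with both genes in 1 list (674, 1851 and 1009).

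Genes of lipid synthesis were divided. Of 8 mevalonate pathway genes 5 were bound, each at a shared peak, among them Fpps with CG7745, Hmgs (the synthase of HMG-CoA) with Vha44 and Idi with AP-2sigma. These peaks were of middle or low strength, at optimal ranks of 2549, 4172 and 5436. Of the 19 bound genes of fatty acid and phospholipid synthesis out of 32, 9 (47.4%) were at shared peaks, led by Pss, a phosphatidylserine synthase gene, with Nubp2 (158, 518 and 238) and Cds, the CDP-diacylglycerol synthase gene, with Uba2 (293, 589 and 362). Of the 8 bound genes of SREBP processing and the COPII coat 6 were at shared peaks, Sec23 of the COPII coat with MTA1-like being the strongest (1813, 3742 and 1912).

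Cytosolic ribosomal protein genes stood differently. Of 93 such genes 77 were bound, 38 of them (49.4%) at shared peaks, led by RpL34b with CG8132 (182, 299 and 194) and RpS27 with Nup37 (254, 458 and 314). Those with a neighbour were bound at 31 of 38 (81.6%) and those without at 46 of 55 (83.6%). This split is not the one by shared peaks, whose start sites can lie more than 500 bp apart. For the mitochondrial ribosomal proteins the counts were 37 of 55 (67.3%) with a neighbour and 6 of 21 (28.6%) without, for the synthetases 14 of 23 (60.9%) and 2 of 12 (16.7%), and for all genes 51.03% and 18.8%. Translation initiation factors had 9 of 19 bound genes at shared peaks, glycolysis 5 of 8, the unfolded protein response 4 of 8, insulin and TOR signalling 3 of 9, and ecdysone response 1 of 9, which was usp, a subunit of the ecdysone receptor, with CG4313. The lists of tissue genes hold few genes with a neighbouring start site, 22 of the 177 chemoreceptor, 5 of the 110 cuticle, 2 of the 7 salivary glue and 1 of the 15 muscle genes, and none of the 6 larval serum protein and 12 synaptic genes. Of 177 chemoreceptor genes 2 were at shared peaks, Ir60e with CG13585 and Gr63a with Lamtor4, at optimal ranks of 4439 and 7122. Of the cuticle, salivary glue, larval serum protein, muscle and synaptic genes none was. Bound by any optimal peak were 3 of the 15 muscle and 3 of the 12 synaptic genes, 1 of the 110 cuticle genes and none of the glue and larval serum protein genes.

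**Figure D5:**
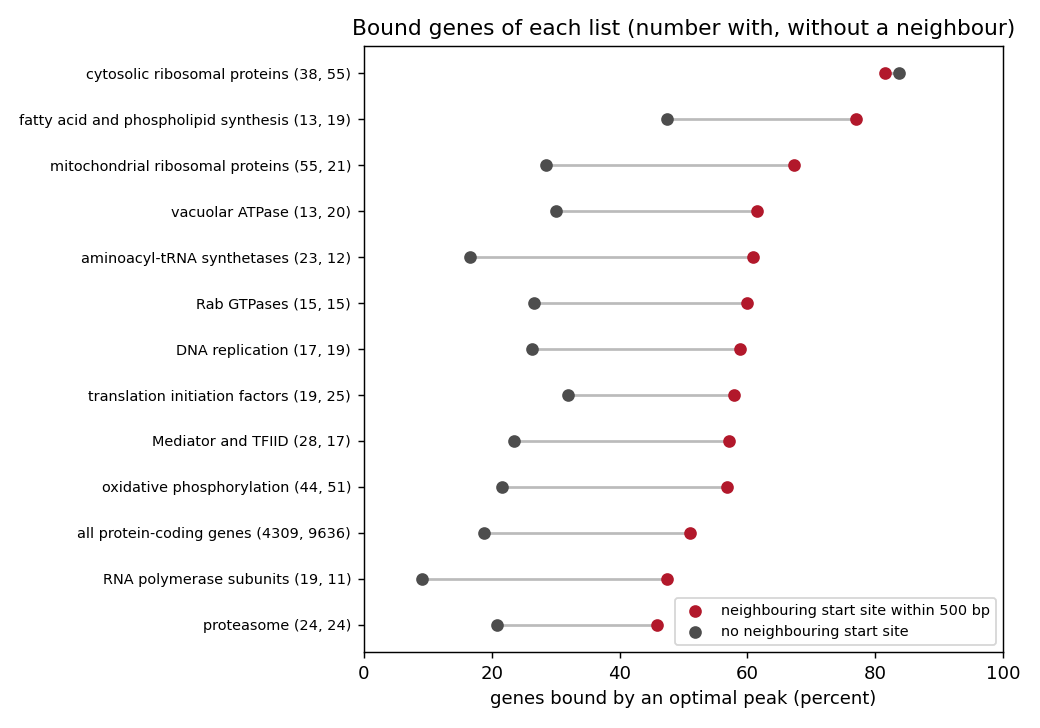
Percent of the genes of each list bound by an optimal peak (x axis), for genes with a neighbouring start site within 500 bp (red) and genes without one (grey), in lists with at least 10 genes of each kind. Numbers in brackets count the genes with and without a neighbour; cytosolic ribosomal proteins are at 81.6% and 83.6%, all protein-coding genes at 51.03% and 18.8%.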

How the data were processed

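SREBP-eGFP ChIP-seq of 3 biological replicates of whole larvae, 1 group per the labels, was analysed from peak lists in narrowPeak format. The reads were aligned to dm6, per the labels. Per the deposited notes, the alignments of a replicate and 1 other file common to all gave its list, all 3 alignments with that file gave the pooled list, and the optimal list was made from these lists by IDR (irreproducible discovery rate). Not given in the sources used here is which aligner, caller and IDR threshold served. The deposited signal value is the authors' measure of peak height, and since its scale is not stated it served for ranks alone. The deposited -log10 q-value, tied at its top for 1204 of the 1212 shared peaks, was not used to rank. The summit offset in the deposited lists was added to the start of the peak, and coordinates are counted from 1.

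Start sites of 13945 protein-coding genes came from Ensembl release 115 (BDGP6, the dm6 assembly), and sequence from that assembly. The nearest 2 genes gave the orientation of a peak. Replicates were compared in their 7993 strongest peaks. Summits matched within 150 bp, and motifs were sought on both strands within 50 bp. The 13 motifs included Ohler 6, which matched 1.07% of shared peaks, 0.522% of single-gene peaks and 0.717% of promoters. Differences within replicates were tested by the exact sign-flip permutation test, and the code was tested on simulated data. Python 3.11.15, numpy 2.4.6, pandas 2.3.3, scipy 1.17.1 and matplotlib 3.10.9 were used.

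The members and lists were chosen with earlier results of these data known. Named are the 8 strongest divergent, 5 same-strand and 5 convergent peaks matched in all 3 full lists, the 4 with the most genes, pairs with both genes in 1 list and up to 4 members of a list, and 1 of the same-strand peaks and 1 of the motif peaks are not reported here. The motif peaks, the G+C content, A/T runs, rank classes and the split by distance difference were chosen after the values were seen. Of the list entries, 8 were matched by a synonym and 7 were not matched and left out. P-values of the sign-flip test do not measure the spread between the replicates, since 3 differences of 1 sign give 0.25 at any spread.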

Additional observations from a re-analysis of the deposited data

How the results depend on the processing

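No result reversed in 69 recomputations, though only a difference could. Of the 69, 47 were counted as the same by 1 of 3 measures, that a difference kept its sign, a share moved by less than the spread between replicates, or the number of peaks stayed within 1.5 times. Part of the 47 was fixed in advance. Leaving out 1 of 3 replicates cannot move a mean by that spread, or turn a difference with 1 sign in all 3. A kept sign leaves the size open, and the mean difference in median rank shrank to -183.5 among the 3996 strongest peaks. The difference in bound genes, in median rank and in G+C between shared and single-gene promoter peaks kept its sign in the mean under each alternative run. A promoter limit of 250 bp gave 782 shared peaks, 29.4% of promoter peaks, 90.2% of them divergent, and a limit of 1000 bp 1593 shared peaks, 39.8% and 87.3%. With 1 most upstream start site per gene, 1122 peaks or 41.1% were shared, 89.2% of these divergent, and 80.7% of divergent summits lay between the start sites. The 3996 strongest peaks gave 779 shared peaks, 43.4% of promoter peaks, 92.2% divergent, with the DRE at 1.93% and CACGTG at 0.770%. Peaks with exactly 2 genes were 93.4% divergent. Summits matched within 50 bp put 60.8% of the shared peaks in all 3 replicates, within 250 bp 80.6%, and in the full lists 89.5%, and within 50 bp the nearest gene was the same for 82.5%. A motif limit of 25 bp gave 1.73% for the DRE and 0.248% for CACGTG, and one of 100 bp 9.57% and 1.82%. Apart from what each alternative changes by its construction, the cause was not tested. Limiting start sites to protein-coding transcripts changed nothing, since each transcript used was one. Leaving out each replicate in turn gave a shared portion of 35.9% to 37.1%, a divergent portion of 90.8% to 91.6%, a portion between the start sites of 81.7% to 84.5%, a difference in bound genes of 32.1 to 33.0 points, in median rank of -1204.5 to -1026.25 and in G+C of -3.91 to -3.30 points. The 8 recomputations of G+C were chosen after seeing the data. Differences were taken within each replicate, and with 1 group no pairing of samples across groups arises. The lists hold no reads, so weak peaks could not be weighed by depth, and the sign-flip test over 3 replicates cannot pass 0.05.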
